A study of Malus domestica with 12 samples.

Results

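A glutaredoxin (MD06G1110300), a pair of thioredoxin superfamily transcripts (MD05G1309500 and MD10G1288100) and a potential ascorbate peroxidase APX2 (MD04G1104900) were followed in the peel of Granny Smith apples at harvest. They are 4 transcripts that the study placed under response to oxidative stress, and they were selected on these same arrays: a combined test of high scald over low scald, with its adjusted p, chose them. Their lower level in high scald peel is therefore given as a description and without a test. Their transcript models on the array are MDP0000166359, MDP0000135807, MDP0000179654 and MDP0000126107 in the same order. Each has 1 sense and 1 antisense probe, which makes 8 of the 133709 probes other than controls.

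Superficial scald is a browning of the skin that appears after long cold storage. The high scald samples were wild-type Granny Smith peel of the years 2015 (plots 24 and 31, called 2015-P24 and 2015-P31) and 2017 (plot 31b, called 2017-P31b here and tied to an orchard named R11 in the study). Low scald peel came from plots 24 and 36 in 2014 (2014-P24 and 2014-P36). The study's sections differ on which of the plots 31 and 36 was picked in 2014 and which in 2015, and the deposited labels are followed here, so the orchards behind C2 are open to that doubt. All were picked at early physiological maturity and sampled at harvest, before any storage, and each was a single pool of peel from 20 fruit. Comparison C1 paired 2015-P24 with 2014-P24, C2 paired 2015-P31 with 2014-P36, and in C3 2017-P31b was paired with the 2014-P24 sample once more, each on 2 Agilent 2-colour arrays with swapped dyes. No low scald sample came from 2015 or 2017 and no high scald sample from 2014, so scald and harvest year cannot be told apart. In bulk peel, fewer cells that carry a transcript and less transcript per cell cannot be told apart either.

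Plant cells hold hydrogen peroxide in check through ascorbate and glutathione. Ascorbate peroxidases reduce hydrogen peroxide with ascorbate, and glutaredoxins and thioredoxins reduce disulfide bonds in proteins, drawing on glutathione or on thioredoxin reductases. In Arabidopsis, cytosolic APX2 is known as a heat and light stress gene under the heat shock factor HSFA2. The names of the other transcripts need care. MD05G1309500 and MD10G1288100 share AT1G28480 as their best Arabidopsis match, and the study's own annotation files both also as glutaredoxin-C9 type proteins, a plant-specific glutaredoxin class whose Arabidopsis member binds TGA transcription factors. The best match of MD06G1110300, AT1G64500, is known in Arabidopsis as THRUMIN1, an actin-bundling protein of chloroplast movement with a glutaredoxin-like domain. All 4 names rest on similarity and not on an assay in apple.

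The arrays were unequal in quality. A probe was taken as well above background where its intensity passed that of the surrounding pixels by over 2.6 of their SDs. This held for 11% to 30.9% of the probes in a channel, with the lowest shares in C2 under Cy5, 11% in 2015-P31 and 13.3% in 2014-P36. Over all probes, the ratios of dye-swapped arrays correlated by 0.28 in C2, 0.56 in C1 and 0.68 in C3. The arrays of C2 lay on a slide of their own, so C2 and its slide cannot be told apart. No spot of the 4 transcripts was saturated. Whether the peel carried its usual marker transcripts was not analysed here, because the files pair probes with transcript models and not with descriptions.

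The glutaredoxin MD06G1110300 was the member with the lowest ratio and the most even one. Its level, the log2 intensity after normalisation averaged over the channels of a sample, was 10.75 in 2015-P24, 10.68 in 2015-P31 and 10.78 in 2017-P31b, against 12.43 in 2014-P24 and 12.31 in 2014-P36. The 3 high scald samples lay within 0.1 of each other, and a gap of 1.54 separated them from the low scald samples. C1 gave a log2 ratio of high over low scald of -1.69, C2 one of -1.63 and C3 one of -1.64. Their mean was -1.66 ± 0.03 (SD, n = 3 comparisons), a 3.15-fold lower signal in high scald peel. Its probe was well above background in all 12 channels.

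This evenness was closer than the arrays themselves repeat. On the single arrays the ratio of MD06G1110300 was -1.70 and -1.69 (C1), -1.75 and -1.52 (C2), and -1.59 and -1.69 (C3). The dye-swapped arrays of C2 thus differed by 0.23, more than any pair of comparisons did, and the SD between dye-swapped arrays was 0.10. The combined test that chose the transcript rewards ratios that are alike, so its evenness is a description only. The evenness also rested on the normalisation within arrays. With each array centred on its median in place of loess, C1 gave -1.32, C2 -1.80 and C3 -1.97, a range of 0.65. In the other settings tried on the same arrays the range stayed between 0.03 and 0.14, and the transcript was lower in high scald peel in each comparison under all of them.

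**Figure D1:**
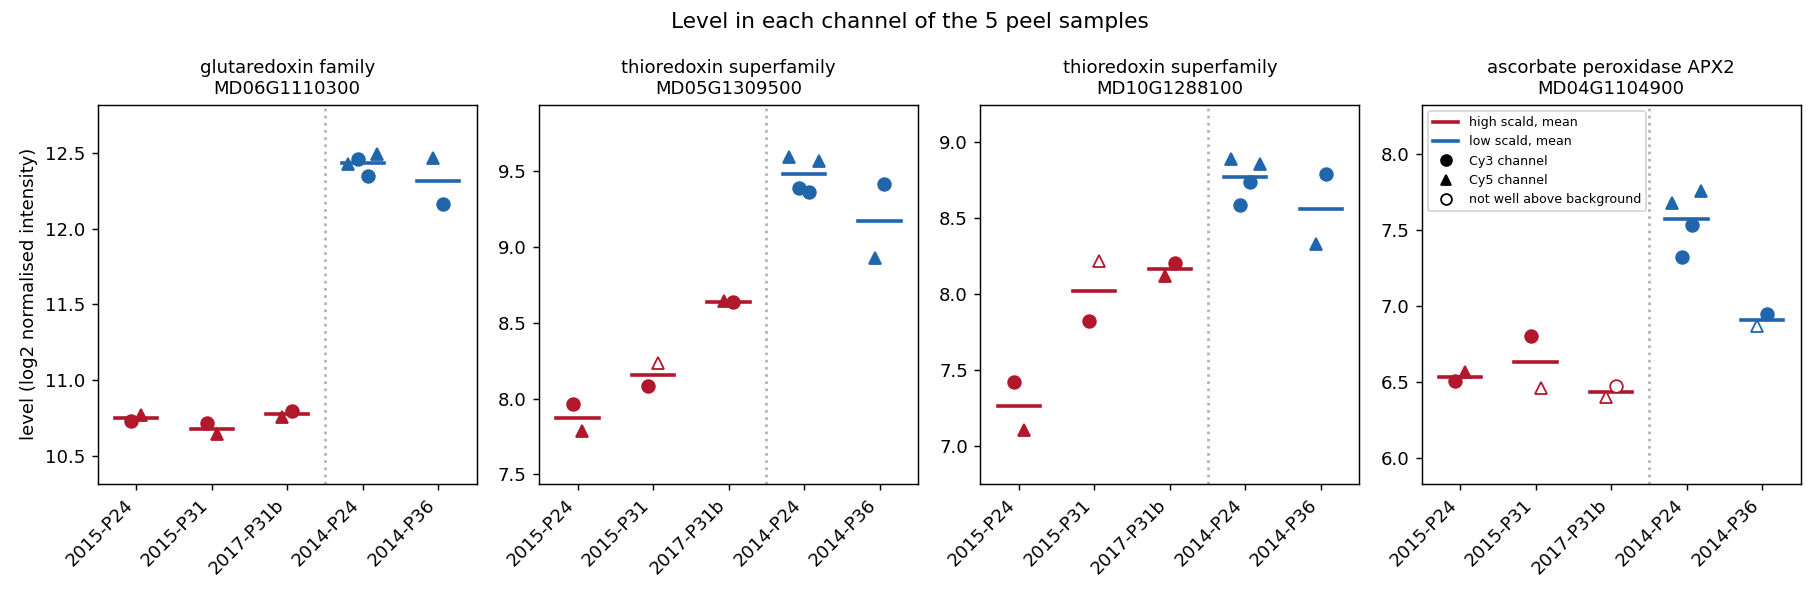
Level of the 4 transcripts in each channel (log2 normalised intensity, each panel spanning the same height but placed at its own level), with the high scald samples in red on the left and the low scald samples in blue on the right. Points are channels (circle Cy3, triangle Cy5, open where not well above background), bars are sample means, and for MD06G1110300 the high scald means of 10.68 to 10.78 lie far below the low scald means of 12.31 and 12.43.

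The thioredoxin superfamily pair moved less and less evenly. MD05G1309500 had levels of 7.87 in 2015-P24, 8.16 in 2015-P31 and 8.64 in 2017-P31b, against 9.48 in 2014-P24 and 9.17 in 2014-P36. The channels of the 3 high scald samples did not overlap one another, whereas those of the low scald samples did. The log2 ratio in C1, -1.62, was farther from 0 than the -1.01 of C2 and the -0.83 of C3, with a mean of -1.15 ± 0.41 (SD, n = 3 comparisons), 2.22-fold lower in high scald peel. Without C1 the mean was -0.92.

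MD10G1288100 followed the same order. Its levels were 7.26 in 2015-P24, 8.02 in 2015-P31 and 8.16 in 2017-P31b, against 8.77 in 2014-P24 and 8.56 in 2014-P36. 2015-P24 stood 0.75 below the next sample, the channels of the other 2 high scald samples overlapped, and those of the low scald samples overlapped as well. C1 again gave the most negative log2 ratio, -1.48, next to -0.54 for C2 and -0.64 for C3, with a mean of -0.89 ± 0.51 (SD, n = 3 comparisons), 1.85-fold lower in high scald peel. The mean rested on C1 more than that of any other member: without C1 it was -0.59. In the Cy5 channel of 2015-P31 neither probe of the pair was well above background, while both were in the other 11 channels.

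Whether a ratio differed among comparisons was tested with limma over the 6 arrays, the comparison entering as a factor. This spread is that between dye-swapped arrays of the same RNA samples, so its p-values measure technical error and not the spread between orchards or fruit batches, and the members had already been selected on the mean of these ratios, which favours even ones. MD10G1288100 passed this test, though its C2 ratio includes a channel of 2015-P31 that was not well above background. Its ratio was less negative in C3 than in C1 by 0.84 ± 0.07 (SE, limma, Benjamini-Hochberg adjusted p = 0.019 over all probes) and less negative in C2 than in C1 by 0.93 ± 0.07 (SE, limma, adjusted p = 0.012). Because C1 and C3 share 2014-P24, the first difference sets 2017-P31b against 2015-P24. For the 4 transcripts the level of 2014-P24 itself differed by -0.03 to 0.15 between the arrays of C3 and those of C1. Among all probes, 0.425% were called for C3 minus C1 and 0.771% for C2 minus C1. Both calls were lost with median centring, where the differences were 0.36 and 0.50, and with plain subtraction of the background, where they were 1.05 and 1.05. C3 minus C1 was lost also without background correction (0.89) and in the deposited log2 values (0.83), that is, in 4 of 7 alternatives. Among the 7, Aquantile after loess leaves the ratios unchanged by design.

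MD05G1309500 showed differences of similar size that did not pass. They were 0.79 ± 0.13 for C3 minus C1 (SE, limma, adjusted p = 0.12) and 0.61 ± 0.13 for C2 minus C1 (SE, limma, adjusted p = 0.19). Its dye-swapped arrays were farther apart, with an SD of 0.16 against 0.03 for MD10G1288100. The ratios of the pair differed from each other by at most 0.47 in a comparison, the smallest such value between any 2 of the 4 transcripts. The genes lie on chromosomes 5 and 10, which are known to be partly homoeologous in apple. How far transcripts of one hybridise to the probe of the other was not tested.

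**Figure D2:**
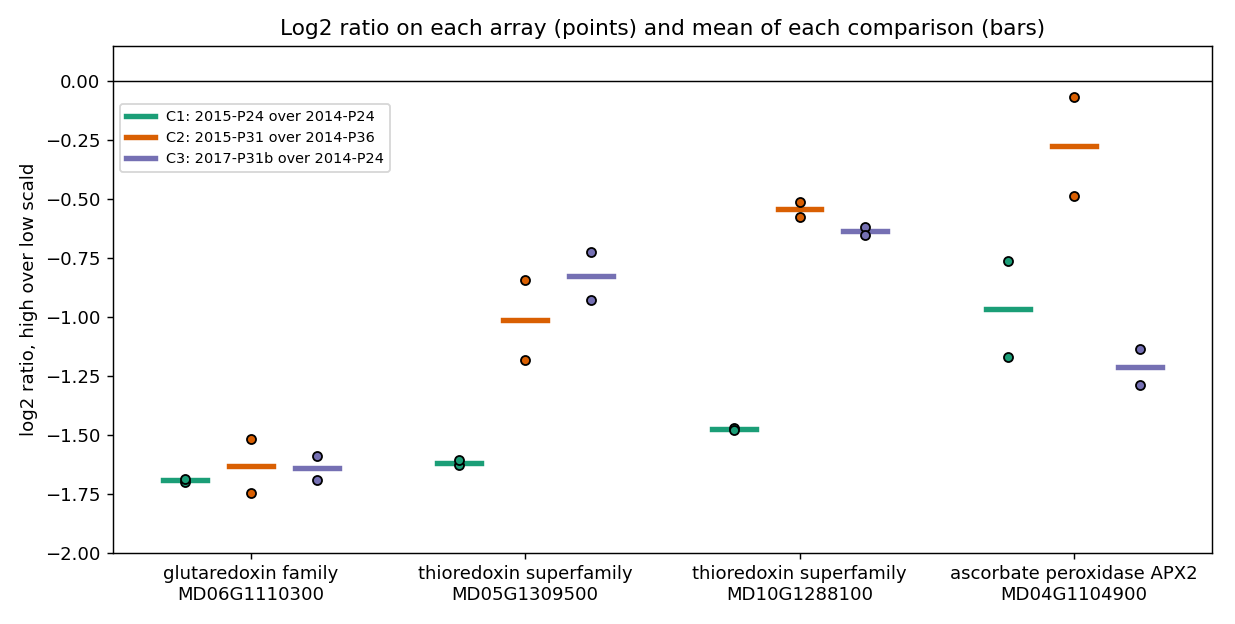
Log2 ratio of high over low scald on each of the 6 arrays (points) and its mean for each comparison (bars) for the 4 transcripts; the zero line marks equal levels. The bars of MD06G1110300 lie between -1.69 and -1.63, C1 stands apart for the thioredoxin superfamily pair, and C2 lies nearest to 0 for APX2.

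APX2 (MD04G1104900) was the dimmest of the members. Its probe was well above background in 2 of 2 channels of 2015-P24, 1 of 2 of 2015-P31 and 0 of 2 of 2017-P31b, against 4 of 4 of 2014-P24 and 1 of 2 of 2014-P36. The levels were 6.53 in 2015-P24, 6.63 in 2015-P31 and 6.43 in 2017-P31b, against 7.57 in 2014-P24 and 6.91 in 2014-P36. 2014-P24 stood 0.67 above 2014-P36, and the high scald samples lay within 0.2 of each other. The channels of 2015-P31 overlapped those of both 2015-P24 and 2017-P31b.

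For APX2 the log2 ratio was -0.28 in C2, -0.97 in C1 and -1.21 in C3, with a mean of -0.82 ± 0.49 (SD, n = 3 comparisons). Since 2017-P31b was not well above background, the size of the C3 change, 2.32-fold lower as measured, is uncertain. The lowest level of any probe well above background in its channels was not above the measured level, so it set no bound. On the 2 arrays of C2 the ratio was -0.07 and -0.49. The Cy5 channel was not well above background on either, that of 2014-P36 on the first and that of 2015-P31 on the second. The C2 ratio is therefore uncertain. The size of the change depended on the background: with the local background subtracted as it stands, the mean was -1.70, made up of -1.65 (C1), -1.0 (C2) and -2.43 (C3). C2 minus C3, with both ratios uncertain in size, was 0.94 ± 0.19 (SE, limma, adjusted p = 0.082), and 2.84% of all probes were called for C2 minus C3. In 3 settings, namely no background correction, the deposited log2 values and the dim probes left out, this difference passed the threshold, at 1.15, 1.17 and 0.94. C3 minus C1 was -0.25 ± 0.19 (SE, limma, adjusted p = 1.0).

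For each of the 4 transcripts the 3 high scald samples lay below both low scald samples, as 5.45% of all probes did, and the ratio was negative on all 6 arrays, as for 2.34% of all probes. Over the 3 ratios, limma called 0.000748% of all probes, a single probe that belongs to none of the 4 transcripts. The study's own combined test called far more transcripts, these 4 among them, and this fit did not reproduce that. At an unadjusted p under 0.05 limma gave 7098 probes, 5.31% of all. The members were selected on this contrast, and nothing is read from these counts.

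The antisense probes stayed near background. Those of MD10G1288100 and MD04G1104900 were well above background in 0 of 12 channels, and that of MD05G1309500 in 1 high scald and 1 low scald channel. The antisense probe of MD06G1110300 was well above background in 0 of 6 high scald channels and 3 of 6 low scald channels, all of them 2014-P24. Its log2 ratio reached -0.45 in C1 and was -0.16 in C2 and -0.20 in C3. No antisense probe of the 4 transcripts was called for a difference among comparisons.

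**Figure D3:**
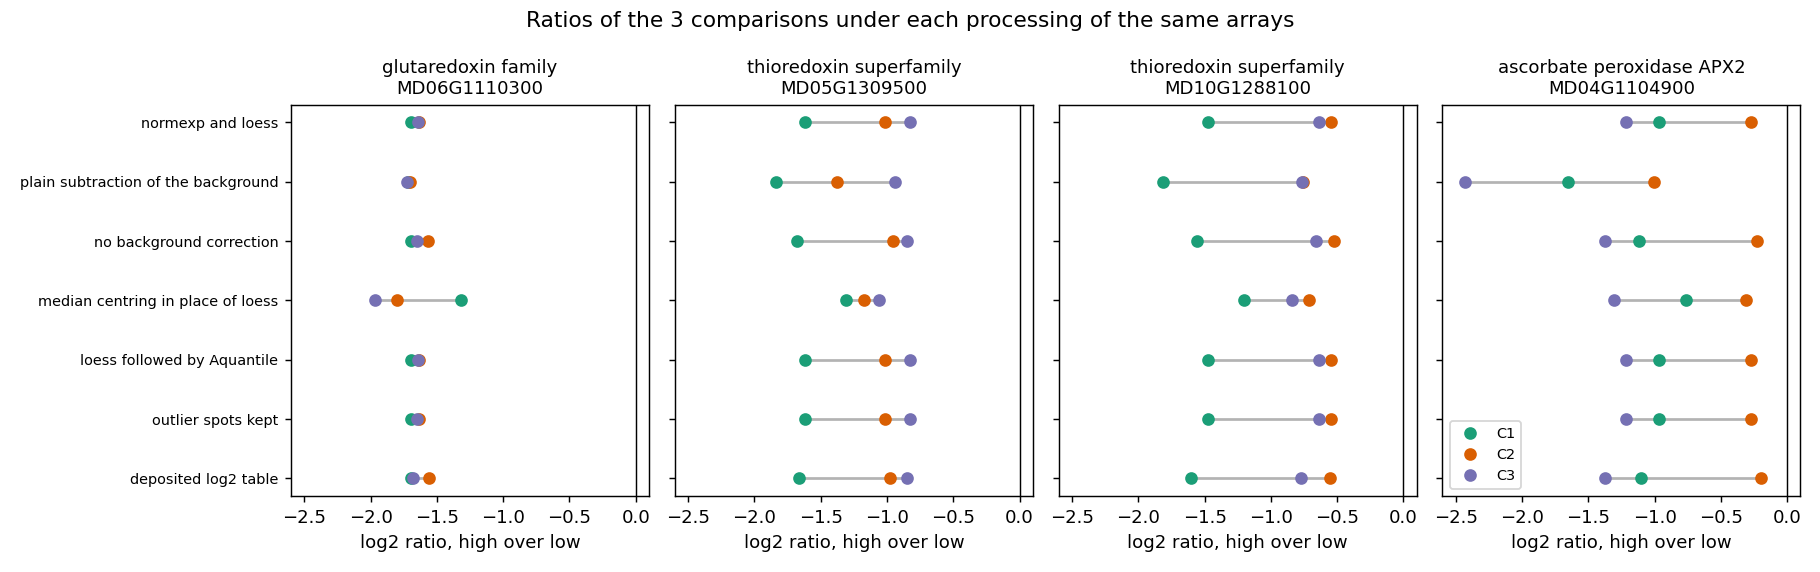
Log2 ratio of high over low scald in C1, C2 and C3 (points, joined by a grey line over their range) for each of the 4 transcripts under 7 ways of processing the same arrays. Of these, Aquantile after loess leaves the ratios unchanged by design. The points of MD06G1110300 lie within 0.14 of each other except with median centring, where they spread over 0.65, and APX2 moves farthest with plain subtraction, to between -2.43 and -1.0.

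The 4 transcripts were set beside the 13 others that the study listed under oxidative stress, a list likewise selected on these samples. Of the 13, 11 were lower and 2 higher in high scald peel by their mean log2 ratio, with a median of -1.11 next to 0.00 over all probes. The most negative was a tau class glutathione S-transferase of the GSTU19 type (MD05G1211000, -2.37), an enzyme class that couples glutathione to reactive compounds. The positive ones were a GASA14-like gibberellin-regulated transcript (MD17G1039200, 1.08) and a barwin-related endoglucanase (MD02G1013800, 0.94). The endoglucanase was well above background in 5 of 6 high scald and 1 of 6 low scald channels, so the size of its rise is uncertain. A patatin-like phospholipase (MD15G1085500) was well above background in 0 of 6 high scald channels, so its change was only bounded, at 1.97-fold lower or more. Among those with some high scald channels well above background, the smallest negative mean was that of another GSTU19 type transcript (MD05G1210000, -1.01). A copper/zinc superoxide dismutase CSD1 (MD00G1051500), which makes hydrogen peroxide from superoxide, was well above background in 0 of 6 high scald and 1 of 6 low scald channels.

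Among the 13, C2 held the ratio nearest to 0 for 11, against 32.4% of all probes. In limma's test over the 6 arrays, C2 minus C3 was called for 6 of the 13 (2.84% of all probes) and C2 minus C1 for 4 (0.771% of all probes), all less negative in C2. For MD05G1211100 and MD05G1210700, which are among the 6, the probe was well above background in 0 of 2 channels of 2017-P31b, so their C3 ratios are uncertain in size. The C3 ratio of MD05G1211100 also came from a single array. For MD14G1014200, a transcript of unknown function also among the 6, only 1 of 2 channels was well above background in each sample of C2. Its C2 ratio is thus uncertain. C3 minus C1 was called for 2 (0.425% of all probes), of opposite sign. One of these was MD04G1139400, a GSTU8 type glutathione S-transferase, whose differences (0.76 for C3 minus C1, limma, adjusted p = 0.025, and 0.78 for C2 minus C1, limma, adjusted p = 0.018) had the sign and the near size of those of MD10G1288100. The other was MD05G1210000 of the GSTU19 type, with -0.65 for C3 minus C1 (limma, adjusted p = 0.034). With plain subtraction of the background or median centring, 0 of all probes were called in these contrasts, so all of these calls were lost there.

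The heat shock factor HsfA2, which drives APX2 in Arabidopsis, was represented by MD15G1057700 and MD08G1064100. For MD15G1057700 the log2 ratio was -3.14 in C1 and -1.44 in C2, where 1 of the 2 channels of 2015-P31 was well above background. In C3 its probe was well above background in 0 of 2 channels of 2017-P31b, so the size of the change, 9.42-fold lower as measured, is uncertain. MD08G1064100 was well above background in 0 of 6 high scald channels. Its drop was at least 4.71-fold in C1 and at least 4.36-fold in C3, and at least 2.90-fold over all samples. No order of the comparisons is read from these values. Whether APX2 and HsfA2 share a pattern could thus not be read, since 2017-P31b was not well above background for any of them.

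The study's table also held a gene close to each thioredoxin superfamily transcript on its chromosome. MD05G1310300, 8 gene numbers from MD05G1309500, and MD10G1289200, 11 from MD10G1288100, are both DNAJ type heat shock proteins with the same Arabidopsis match. MD05G1310300 had ratios of -2.74 (C1), -1.49 (C2) and -3.37 (C3), and its C3 minus C1 of -0.62 (limma, adjusted p = 0.034) was opposite in sign to the 0.79 of MD05G1309500, which was not called. The call for MD05G1310300 was likewise lost with plain subtraction and with median centring. MD10G1289200 had -3.0 (C1), -1.84 (C2) and -2.94 (C3). The DNAJ genes were thus lowest against 2014-P24 in both C1 and C3, while the thioredoxin superfamily genes were lowest in C1. Only transcripts selected on these samples, from a table held in part, could be neighbours here. For MD04G1104900 and MD06G1110300 the nearest such transcripts were 40 and 68 gene numbers away, a polyubiquitin (-0.61 on average) and a UDP-glycosyltransferase (-0.43).

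**Figure D4:**
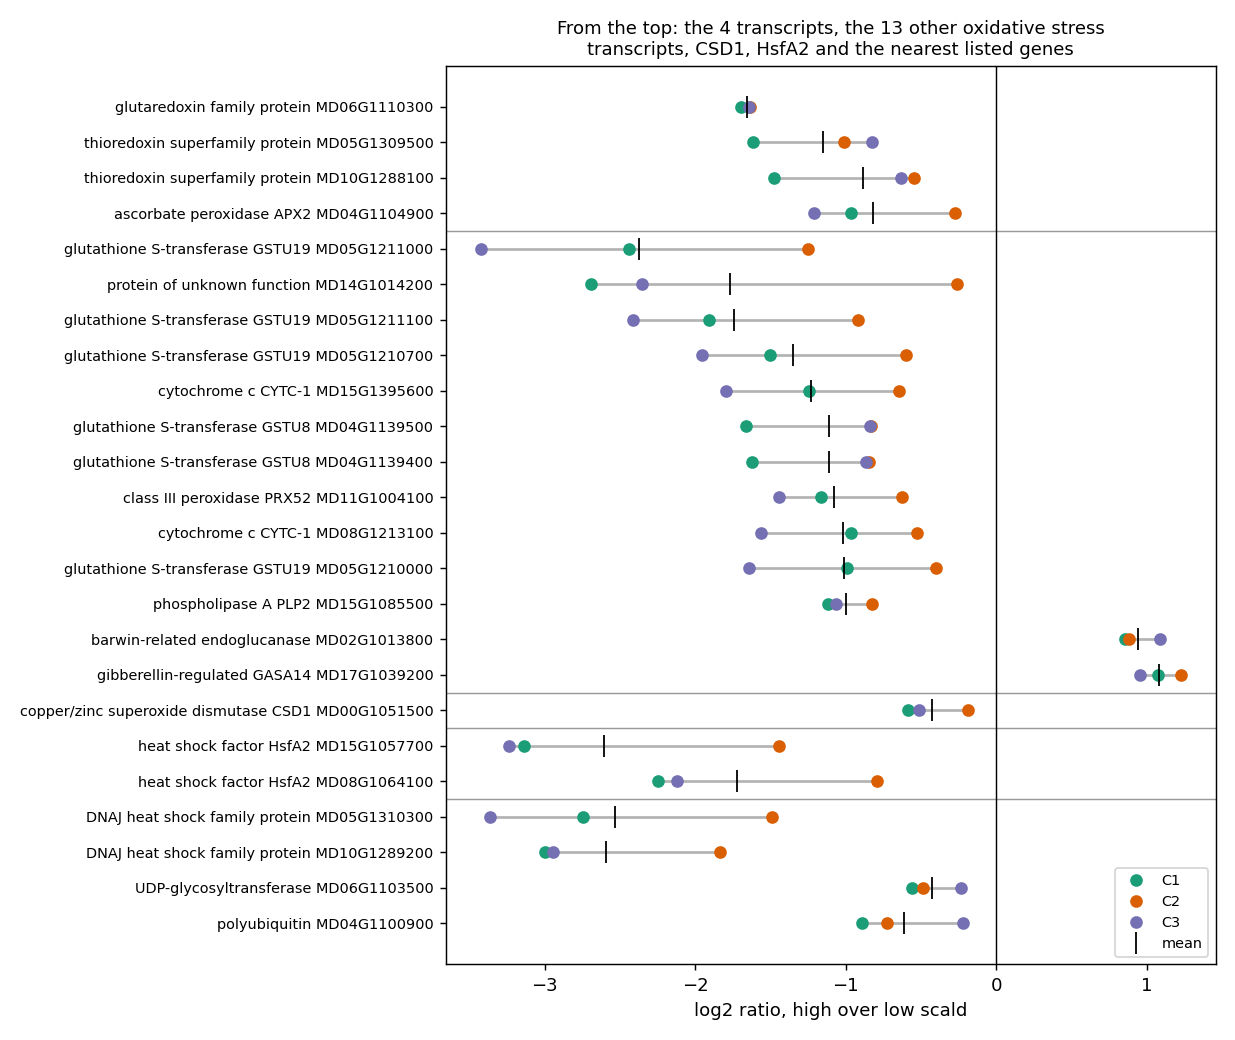
Log2 ratio of high over low scald in C1, C2 and C3 (coloured points), their range (grey line) and their mean (black tick) for the 4 transcripts, the 13 other oxidative stress transcripts, CSD1, HsfA2 and the nearest listed genes, from top to bottom. Of the 13, 11 lie left of 0 and 2 right of it, and C2 lies nearest to 0 for 11 of the 13.

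The transcripts most like each member were sought among the 14504 or 14505 other sense probes well above background in every low scald channel, by the root mean square (RMS) difference of their log2 ratios over the 6 arrays. This measure describes these arrays only. For MD06G1110300 the nearest were MDP0000629002 (0.09), MDE0200020585 (0.16) and the SUI1 type translation initiation factor MD11G1217400 (0.17). For MD05G1309500 they were the GSTU8 type glutathione S-transferase MD04G1139500 (0.11), MDP0000936075 (0.12) and a calmodulin-like transcript, MD17G1014200 (0.12). The nearest to MD10G1288100 were MDP0000720268 (0.19), the GSTU8 type MD04G1139400 (0.23) and MDP0000513751 (0.25).

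Both thioredoxin superfamily transcripts thus had a GSTU8 type transcript among their 3 nearest, and those 2 GSTU8 type genes have adjacent numbers on chromosome 4. For APX2 the nearest were a winged-helix transcription factor, MD04G1064700 (0.12), an MLP-like transcript, MD16G1160100 (0.14), and a GroES-like transcript, MD16G1026800 (0.14). The pair of thioredoxin superfamily transcripts differed from each other by an RMS of 0.32, and MD06G1110300 from APX2 by 0.95, the widest of the 6 pairs of members.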

How the data were processed

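The authors deposited, for each channel, linear-scale intensities of each spot and of its local background, as extracted by Agilent software, with marks for saturated and outlier spots. The deposited intensity was the mean pixel intensity without background subtraction. They also deposited a table of log2 values per probe and channel after their own normalisation (limma is named in the submitters' processing notes), used here as an alternative. Columns identifying spots and probes were used as other information, and 0 columns of other series were met.

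Background was corrected with normexp (offset 50) and ratios were normalised by loess (span 0.3, 4 iterations) within arrays in limma 3.58.1 under R 4.3.3, giving no weight to controls and outlier spots. Outlier spots were then left out, saturated ones kept. All ratios run as high over low scald, and were averaged over repeated spots and then over dye-swapped arrays. The 3 ratios were fitted with lmFit and eBayes over 133709 probes, and the 6 array ratios with the comparison as a factor, with calls at an adjusted p of 0.05 or below. Levels came from single channels after loess and Aquantile. A probe counted as well above background where at least 1 of its 1 or 2 spots did. The number of arrays and peel samples limits the precision. The fits were tested on simulated data.

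The named genes were the members, the study's other oxidative stress transcripts, HsfA2, genes near the members and the 3 nearest by ratio. Members and lists were chosen with earlier results of these data known. Descriptions of redox genes came from the study's annotation, held only in part. Probe sequences were not used here. In the analysis, 23 alternatives were tried.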

Additional observations from a re-analysis of the deposited data

Results flagged for a closer look

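The ratio of MD10G1288100 differed among comparisons in limma's test over the 6 arrays. It was less negative in C3 than in C1 by 0.84 (adjusted p = 0.019), which sets 2017-P31b against 2015-P24 through their shared 2014-P24, and less negative in C2 than in C1 by 0.93 (adjusted p = 0.012). All arrays showed the direction: the ratio was -1.47 and -1.48 on those of C1, -0.51 and -0.58 on those of C2, and -0.62 and -0.65 on those of C3. Behind the -0.58, the Cy5 channel of 2015-P31 was not well above background, so the C2 ratio is uncertain. The call for C3 minus C1 was lost in 4 of 7 alternatives and that for C2 minus C1 in 2 of 7, with Aquantile among the 7 unable to change the ratios. The spread behind these p-values is technical, and 1 peel sample stands behind each high scald value. The 4 channels of 2014-P24 gave levels of 8.59 to 8.89 for MD10G1288100.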

How the results depend on the processing

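The mean log2 ratio of each of the 4 transcripts was negative in all 23 alternatives, and the median of the 13 other oxidative stress transcripts lay between -1.31 and -0.97. For the 4 transcripts this count carries little weight. Their ratios were negative on all 6 arrays, so leaving out an array or comparison could not turn the sign. Several other fits leave the mean ratio unchanged by design, and the transcripts were selected on this contrast. MD06G1110300 had -1.72 with plain subtraction and -1.70 with median centring, and -1.69 to -1.62 with a comparison or an array left out. APX2 had -1.70 with plain subtraction. With a comparison or array left out, MD05G1309500 lay between -1.32 and -0.92, MD10G1288100 between -1.06 and -0.59 and APX2 between -1.09 and -0.62.

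For MD06G1110300, C3 minus C1 was 0.05 and turned to -0.010 with plain subtraction and -0.65 with median centring, and C2 minus C1 was 0.06 and turned to -0.48 with median centring; none was called. For MD10G1288100, C3 minus C1 was also lost without background correction (0.89) and in the deposited log2 values (0.83). Over all probes, 3992 were called in any of these contrasts and 0 with plain subtraction or median centring, where 19486 and 545 had an unadjusted p under 0.05 in limma. The cause was not tested.

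The single call over the 3 ratios became 0 with plain subtraction, median centring, outlier spots kept, slide as a block, C1 and C3 averaged, and 5 unpaired peel samples, and 0 to 1 with a comparison or array left out; at an unadjusted p under 0.05, limma gave 1840 to 10487 probes in these fits with 0 calls. With the 6 arrays entered singly it was 432, with the comparison as a random block 457, with a dye term 126 and with the replicate block 105. In these fits other than the random block, the arrays of 1 pair of RNA samples count as separate. In the random block fit their estimated correlation was -0.04, so they were treated nearly as separate. The dim signal limits APX2 most: 8 of its 12 channels were well above background.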
